A study of Sus scrofa with 13 samples.

Results

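The 68 genes described here carry the symbols of mitochondrial ribosomal proteins, 42 with an MRPL symbol and 26 with an MRPS symbol, which name the large and the small subunit, although MRPS18A and MRPS30 are found in the large one and MRPS36 in another complex. They were taken from a count table of 35670 pig genes by symbol alone, as the rows whose gene name starts with MRPL or MRPS and a digit, and no measured value entered that choice. All 68 passed the filter on low counts that left 16481 genes for testing. MRPL1, MRPL14, MRPL21, MRPL23, MRPL32, MRPL42, MRPL53, MRPS16, MRPS17 and MRPS21 had no row under these symbols and are not analysed here.

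RNA had been sequenced from 13 liver biopsies of female Yorkshire pigs in 4 groups. Baseline, the liver before clamping, is represented by 2 libraries, called 1a and 2. The other 11 came from livers whose artery, portal vein and hepatic veins had been clamped for 45 min and which were sampled after 6 h of reperfusion, so that every liver at 6 h had the same ischemia. Of these, 3 were ischemic controls without cells, 4 had received 3000000 human bone marrow mesenchymal stromal cells (BM-MSCs) per kg through the hepatic artery (arterial infusion), and 4 the same dose through the portal vein (portal infusion). The infused cells, expanded in culture from frozen stocks, were human and the livers were pig. An air embolism was reported in a pig of the portal group, and the paper states that this experiment was stopped prematurely. A pig lost before 6 h would have given no biopsy at 6 h. In a pig of the arterial group a spasm or dissection of the hepatic artery was reported. The labels do not say whether that animal is among the libraries. Nor is it given which animals the baseline biopsies came from. A biopsy is a mixture of cell types, so fewer cells of a type and less RNA per cell cannot be told apart in these data.

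The mitochondrial ribosome is built from ribosomal RNAs encoded in mitochondrial DNA and from proteins that are all encoded in the nucleus, made in the cytosol and imported. It translates only the few respiratory chain and ATP synthase proteins of the mitochondrial genome, so the assembly of these complexes needs products of both genomes. The large subunit holds the peptidyl transferase centre, a stalk that recruits translation factors, a central protuberance facing the small subunit and a tunnel through which the new chain leaves, whereas the small subunit binds and decodes the messenger RNA. Liver cells are rich in mitochondria, and clamping followed by reperfusion is known to damage them.

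The reads counted on genes numbered between 18975413 and 35949178 per library, with a median of 30260803. Hepatocyte markers were abundant in every library, with all 10 of 10 (ALB, APOA1, HNF4A and others) detected in each, which is what a liver sample should show. On the first principal component over the 500 most variable genes, which held 63.9% of their variance, 4 libraries stood apart on the positive side, portal infusion 1 (63.0), arterial infusion 1 (40.0), ischemic control 2 (28.9) and portal infusion 4 (28.2), and the other 9 lay between -29.2 and -4.44. These 4 also had the fewest, or among the fewest, genes with any read (13581, 15460, 16993 and 14264, against 15831 to 20282 in the other 9). That number also depends on the total of reads. Ischemic control 2 (18975413), portal infusion 1 (20563848) and portal infusion 4 (21444917) had the lowest totals, whereas arterial infusion 1 had 30260803. They belong to 3 different groups. For some results that rest on them, values without them are given below, and other results are given only with them.

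After ischemia and reperfusion, most mitochondrial ribosomal protein genes had higher RNA levels in the ischemic controls than at baseline, although no gene passed the test. Of the 68 genes, 55 (80.9%) had a log2 fold change above 0, where 50.2% of all tested genes did. Their median log2 fold change was 0.52, against 0.0048 for all genes tested. For 33 of the 68 (48.5%) every control library lay above both baseline libraries, against 14.8% of all genes tested, and the reverse held for 1, MRPS18C, against 16.3% of all genes. After Benjamini-Hochberg adjustment, edgeR (quasi-likelihood test) called 0 of the 68 and 0 of all 16481 genes (0%), and at an unadjusted p under 0.05 there were 11 higher (16.2%, against 3.16% of all genes) and 0 lower (against 1.21%). Those 11 became 0 without baseline 2 and 2 without baseline 1a or ischemic control 2, and they became 18 without arterial infusion 1, whose spread enters the same fit. The share of all genes moved too. It was 0.319% without baseline 2, 0.958% without baseline 1a, 0.96% without ischemic control 2 and 4.29% without arterial infusion 1.

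**Figure D1:**
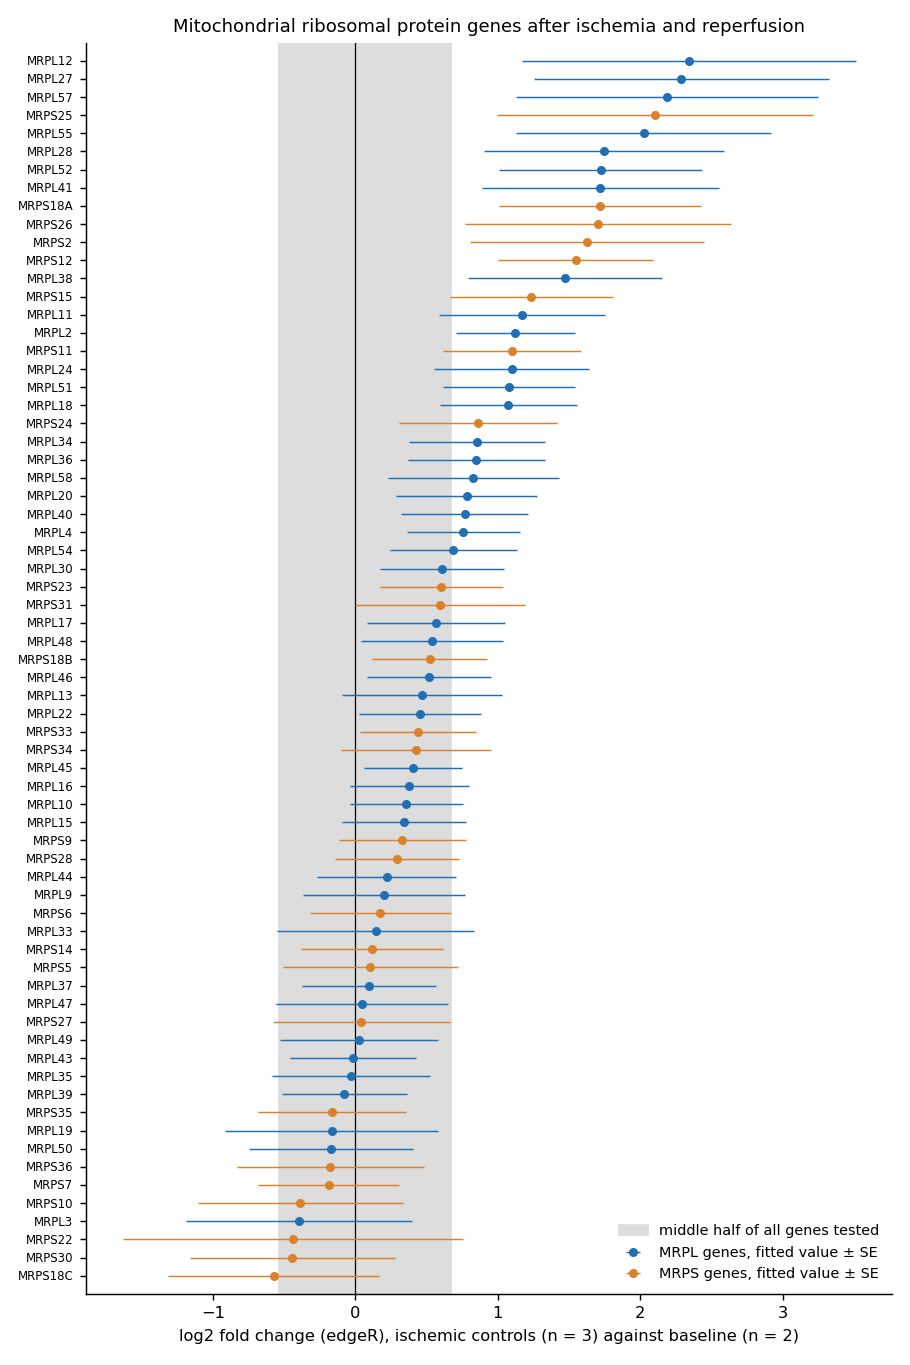
Log2 fold change (edgeR) of each of the 68 genes in ischemic controls (3 libraries) against baseline (2 libraries), sorted, with bars of 1 SE, MRPL genes in blue and MRPS genes in orange, and the interquartile range of all genes tested as the grey band. The values run from -0.57 for MRPS18C to 2.34 for MRPL12, 55 of 68 lie to the right of 0, and the widest SEs are those of MRPS22 (1.20) and MRPL12 (1.17).

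MRPS12, the protein at the decoding centre of the small subunit, had the smallest p of the family in this comparison. Its normalized counts (reads divided by the DESeq2 size factor of the library) were 364 and 167 in the baseline livers, and the controls had 796, 1054 and 512. All 3 controls were above both baseline livers, and the log2 fold change was 1.55 (SE 0.55, unadjusted p = 0.0128, edgeR adjusted p = 0.978). The exact two-sided permutation test gave p = 0.1, the smallest that 3 libraries against 2 allow.

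MRPL2, which lies at the peptidyl transferase centre, was next. Baseline livers had 558 and 346 normalized counts of it, and the controls had 1039, 1219 and 728, again with no overlap. The log2 fold change was 1.12 (SE 0.42, unadjusted p = 0.0169, edgeR adjusted p = 0.978, exact permutation p = 0.1). In the RefSeq annotation of Sscrofa11.1 the span of MRPL2 (chr7:38116172-38121593) overlaps that of KLC4, and since the libraries were not strand-specific, reads in an overlap cannot be assigned to one gene or the other.

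MRPL52, a protein of the large subunit with no bacterial counterpart, was measured at 340.2 and 371 normalized counts before clamping, against 709, 2448 and 464 in the controls. The order of the groups was the same in every library, but ischemic control 2 was far above the other controls. Its log2 fold change was 1.72 (SE 0.71, unadjusted p = 0.0288, edgeR adjusted p = 0.978), and without ischemic control 2 it was 0.75.

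The highest log2 fold change of the family belonged to MRPL12, the protein of the stalk that contacts translation factors and is also known to bind the mitochondrial RNA polymerase. MRPL12 (chr12:1200458-1203817) was measured at 882 and 648 normalized counts before clamping, against 1499, 8528 and 2002 in the controls, so that one control exceeded the others several-fold while all 3 were above baseline. The fitted log2 fold change was 2.34 with an SE of 1.17 (unadjusted p = 0.0649, edgeR adjusted p = 0.978, exact permutation p = 0.2). Without ischemic control 2 it was 1.22.

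By symbol, 36 of 42 MRPL genes were higher, with a median log2 fold change of 0.59, and 19 of 26 MRPS genes, with a median of 0.38. The difference between them was not tested. In the stalk (MRPL10, MRPL11, MRPL12), 3 of 3 were higher with a median of 1.17. Without the 4 libraries that stood apart, their log2 fold changes were 0.36, 0.63 and 1.20. In the central protuberance 7 of 7 were higher with a median of 1.07. Of these, 4 (MRPL18, MRPL27, MRPL38 and MRPL55) had an unadjusted edgeR p under 0.05, against 3.16% of all genes. MRPL27, MRPL38 and MRPL55 had 2406, 7579 and 6950 normalized counts in ischemic control 2, and at most 395, 3480 and 1746 in the other controls. With the 4 libraries that stood apart left out, these 4 genes had log2 fold changes of 0.97, 0.88, 0.91 and 0.92. MRPL27 is also counted in the peptidyl transferase region. In the peptidyl transferase region 4 of 5 were higher, with a median of 0.76, and in the lining and exit of the polypeptide tunnel 6 of 7, with a median of 0.41.

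Split by origin, genes with a bacterial counterpart were higher in 22 of 25 cases in the large subunit (median 0.61) and in 10 of 13 in the small subunit (median 0.29). Those found only in mitochondria were higher in 15 of 19 cases in the large subunit (median 0.54) and in 8 of 10 in the small subunit (median 0.48). These medians differed by less than the range of the members of any list, which in each of these 4 lists ran from below 0 to at least 1.63. The 5 mitoribosomal proteins that carry other symbols (DAP3, PTCD3, CHCHD1, AURKAIP1 and GADD45GIP1), which the selection by symbol had not included, were higher in 4 of 5 cases, with a median of 0.92. Of these, AURKAIP1 had a log2 fold change of 1.91 (SE 0.80) and GADD45GIP1 one of 1.99 (SE 0.86). AURKAIP1 had 6047 normalized counts in ischemic control 2, against 1344 and 1398 in the other controls. GADD45GIP1 had 891 there, against 215 and 184.

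Among the members that did not take part in this shift were proteins of both subunits. MRPL3, near the peptidyl transferase centre, was lower by its fitted value (log2 fold change -0.40, SE 0.79), as were MRPS22 (-0.44, SE 1.20) and MRPS30 (-0.44, SE 0.72), a protein that, despite its name, is found in the large subunit. MRPS36, which is now known as a component of the 2-oxoglutarate dehydrogenase complex rather than of the ribosome, had a log2 fold change of -0.17 (SE 0.65). None of these differed from 0 by more than its SE. Without the 4 libraries that stood apart, MRPL3 had -0.0093, MRPS22 -0.12, MRPS30 -0.38 and MRPS36 -0.19.

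The 3 paralogs of the MRPS18 family went different ways. MRPS18A, which sits in the large subunit, went from 711 and 606 normalized counts in the baseline livers to 1006, 4348 and 1325 in the controls (log2 fold change 1.72, SE 0.71, unadjusted p = 0.0291). MRPS18B had 1087 and 892 before clamping, against 1114, 1872 and 1336 in the controls (log2 fold change 0.52, SE 0.40). MRPS18C was measured at low counts throughout, with 67.9 and 44.3 before clamping, against 44.3, 24.5 and 43.4 in the controls, and had the lowest log2 fold change of the family, -0.57 with an SE of 0.74. Its groups were free of overlap only by a margin smaller than the digits printed, at 44.3 in baseline 2 and in ischemic control 1. Paralogs can share reads, and how the counting treated reads that map to several places is not given in the sources used here.

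Against the same baseline, the 8 infused livers gave a similar shift, which is no independent repeat since both comparisons share the 2 baseline libraries. Here 59 of the 68 genes (86.8%) were higher, against 49.4% of all genes tested, with a median log2 fold change of 0.52 (all genes -0.01). For 20 genes (29.4%, against 4.29% of all genes) every one of the 8 infused libraries was above both baseline libraries, and the reverse held for 0 (against 5.77%). Again 0 were called after adjustment by edgeR (all genes 0%), and 9 were higher (13.2%, against 2.45%) and 0 lower (against 1.7%) at an unadjusted p under 0.05. Those 9 became 0 without baseline 2, 1 without baseline 1a, 2 without arterial infusion 1 or portal infusion 4 and 4 without portal infusion 1. The share of all genes was 0.204% without baseline 2 and 0.703% without baseline 1a. It was 1.68% without arterial infusion 1, 1.73% without portal infusion 4 and 1.89% without portal infusion 1.

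MRPS12 had 845, 498, 455 and 343 normalized counts after arterial infusion and 1216, 585, 527 and 580.3 after portal infusion. One arterial library thus lay below baseline 1a, and the log2 fold change against baseline was 1.18 (SE 0.49, unadjusted p = 0.0288, edgeR adjusted p = 0.886, exact permutation p = 0.0667). MRPL11, the base of the stalk, was above baseline in all 8, with 666 and 640.3 at baseline, 2859.7, 1538, 1209 and 743 after arterial infusion and 2260.4, 1129, 1088 and 2169 after portal infusion. Its log2 fold change was 1.27 (SE 0.53, unadjusted p = 0.0308, edgeR adjusted p = 0.886). In the stalk 3 of 3 genes were above 0 with a median of 1.27, in the central protuberance 7 of 7 (0.84), in the peptidyl transferase region 4 of 5 (0.54) and along the tunnel 7 of 7 (0.32). With the 4 libraries that stood apart left out, MRPL10, MRPL11 and MRPL12 of the stalk had 0.22, 0.82 and 0.76. The lowest fitted value of this comparison belonged to MRPS27, a pentatricopeptide repeat protein of the small subunit, at -0.33 (SE 0.52), which was 0.088 without the 4 libraries that stood apart.

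MRPL45, which binds the ribosome to the inner membrane at the mouth of the tunnel, had the smallest SD of the 68 genes over the livers at 6 h. It had 829.2 and 692 normalized counts at baseline, 1054, 989 and 991 in the controls, 1202, 953, 839 and 927 after arterial infusion, and 1162, 1076, 934 and 1253 after portal infusion. Every liver at 6 h was above both baseline livers, although arterial infusion 3 exceeded baseline 1a by very little. Over the 11 livers at 6 h it averaged 1034 ± 128 (SD, n = 11), against 761 ± 97.0 (SD, n = 2) before clamping. The log2 fold change was 0.41 (SE 0.34) in the controls and 0.42 (SE 0.30) in the infused livers, and the edgeR adjusted p was 0.978 and 0.886.

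No difference between infused livers and ischemic controls was detected for any gene of the family at this number of livers. The groups were defined by infusion, not by the presence of cells in the biopsy. In the paper, human B2M was measured by qPCR as a marker of the cells, and B2M-positive samples were compared with controls. Which libraries those were is not given in the sources used here, so that comparison was not made. Between all infused livers and ischemic controls 36 of 68 genes had a log2 fold change above 0 (52.9%, against 47.9% of all genes), the median was 0.01 (all genes -0.02), and 0 genes were called by edgeR, after adjustment or at an unadjusted p under 0.05 (all genes 0%, and 0.734% higher and 1.41% lower). No gene separated the 8 infused from the 3 control livers without overlap (0.225% of all genes higher and 0.34% lower). The widest deviations were -0.56 for MRPL2 (SE 0.29, unadjusted p = 0.0754) and 0.81 for MRPS18C (SE 0.58).

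For MRPL2 the 4 arterial libraries had 921, 698, 516 and 531 normalized counts and the 4 portal ones 782, 761, 641 and 653, where the controls had 1039, 1219 and 728. Of the 8 infused livers 5 lay below all controls, and the others overlapped with them. The exact permutation test of infused against control livers gave p = 0.0364 before adjustment, with edgeR's adjusted p at 1.00.

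Arterial infusion against controls gave 36 of 68 genes above 0 (50.8% of all genes) and a median of 0.03, and portal infusion 34 of 68 (48.1% of all genes) and a median of -0.0038, again with 0 genes at an unadjusted p under 0.05 in either direction. Of all genes, 0.625% were higher and 0.94% lower at this p in the arterial comparison, and 1.13% and 1.66% in the portal one. The 2 comparisons share the 3 control livers. MRPS18C was the 1 gene (1.47%, against 1.61% of all genes) for which all arterial livers, at 67.8, 136, 69.8 and 76.5 normalized counts, were above all controls, and its log2 fold change was 1.19 (SE 0.64, unadjusted p = 0.0847, exact permutation p = 0.0286). No gene lay below all controls after arterial infusion (1.57% of all genes). It rests on few reads, between 14 and 147 per library at 6 h, and its span overlaps ABRAXAS1 and HELQ.

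After portal infusion, 2 genes (2.94%, against 2.33% of all genes) lay below all controls and 0 above them (1.39%). MRPL34, a small protein of the large subunit, had 209, 265, 228 and 256 normalized counts, against 288, 394 and 409 in controls, with a log2 fold change of -0.63 (SE 0.39). MRPL18 of the central protuberance had 965, 1036, 724 and 1069, against 1099.6, 1520.0 and 1257 in controls, with a log2 fold change of -0.48 (SE 0.39). Both gave p = 0.0286 in the exact permutation test, the smallest that 4 against 3 livers allow, and an edgeR adjusted p of 1.00. Both shares were close to those of all genes.

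Between the 2 routes, 34 of 68 genes were higher after arterial infusion (52.9% of all genes), the median was -0.00088 (all genes 0.04), and 0 genes passed an unadjusted p under 0.05 (1.09% of all genes higher and 1.32% lower) or were free of overlap (0.91% higher and 0.498% lower). The fitted values ran from -1.12 for MRPL12 (SE 0.84) to 0.77 for MRPS18C (SE 0.58). That of MRPL12 was 0.15 without the 4 libraries that stood apart. The smallest p belonged to MRPS6, a protein of the small subunit with a bacterial counterpart, with 294, 333, 350.4 and 321 normalized counts after arterial and 132, 329, 234 and 151 after portal infusion. Its log2 fold change was 0.62 (SE 0.38, unadjusted p = 0.128), and the routes overlapped. With all 4 groups tested together 0 of the 68 genes had an unadjusted p under 0.05, against 2.39% of all genes.

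Livers of the same group differed widely from each other. The summed level of the 68 genes was 49393 and 43975 normalized counts at baseline. It was 66559, 134299 and 58062 in controls, 117971, 70032, 67103 and 50706 after arterial infusion and 129454, 68609, 63022.5 and 94597 after portal infusion. All 11 livers at 6 h were above both baseline livers on this scale, whereas in CPM (each library scaled to the same total of reads) arterial infusion 4 (1988) lay below baseline 1a (2069). It also lay slightly below with TMM, the normalization of the edgeR fit (1831 against 1840). With genes of mitochondrial DNA and small RNAs left out of the total it lay above (2348 against 2225). The 4 highest sums were those of the 4 libraries that stood apart on the first component.

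**Figure D2:**
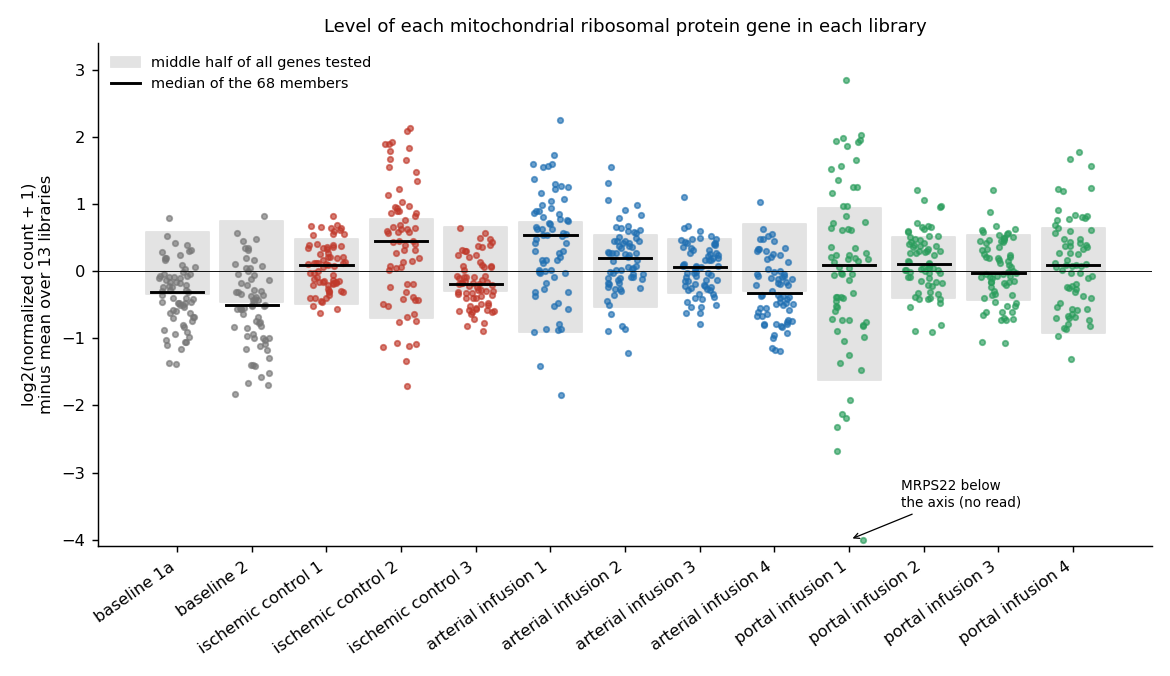
Level of each of the 68 genes in each of the 13 libraries, as log2(normalized count + 1) minus the gene's mean over the libraries, with the median of the 68 as a black line and the interquartile range of all genes tested as a grey box. The medians of both baseline libraries (-0.30 and -0.51) are below 0, and the points spread widest in ischemic control 2, arterial infusion 1, portal infusion 1 and portal infusion 4, where the gene without a read (MRPS22 in portal infusion 1) is drawn at the edge of the axis.

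Baseline 2 was the library with the lowest level for 30 of the 68 genes and baseline 1a for 3, and neither was the highest for any. The highest level lay most often in ischemic control 2 (17 genes), arterial infusion 1 (16), arterial infusion 2 (9) and portal infusion 2 (9). Portal infusion 1 was the highest for 8 genes and the lowest for 14. In that liver the levels of all genes also spread most widely.

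The deviations of the members from their means spread more widely in those 4 libraries, and so did those of all genes. The interquartile range of the 68 deviations was 1.20 for ischemic control 2, 0.93 for arterial infusion 1, 1.47 for portal infusion 1 and 1.00 for portal infusion 4 on the log2 scale, and between 0.50 and 0.84 in the other 9 libraries. Among all genes tested it was 1.48, 1.64, 2.56 and 1.56 in the same 4, and between 0.80 and 1.20 in the other 9, wider than that of the members in every library. For 20 of the 68 genes (29.4%, against 8.86% of all genes tested) these 4 libraries were the 4 highest of the 13, and for 7 (10.3%, against 11.2%) they were the 4 lowest. As the libraries were singled out by a component computed from all genes, these counts are a description.

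Among the 20 genes highest there, MRPL12 had 8528, 7600.3, 16541 and 7871 normalized counts in ischemic control 2, arterial infusion 1, portal infusion 1 and portal infusion 4, and between 648 and 2002 in the other 9 libraries. MRPL27 (chr12:26663884-26670167), whose bacterial counterpart reaches into the peptidyl transferase centre, had 2406, 1669, 2199 and 1807 there and between 197 and 423 elsewhere. MRPS25, a small subunit protein found only in mitochondria, had 3028, 3781, 2905 and 1823 there and between 303 and 705 elsewhere. That the 4 libraries did not overlap with the other 9 for these 3 genes follows from how the 20 were picked. The rest of the 20 were MRPL11, MRPL24, MRPL28, MRPL38, MRPL40, MRPL41, MRPL52, MRPL54, MRPL55, MRPL57, MRPL58, MRPS2, MRPS9, MRPS15, MRPS18A, MRPS24 and MRPS26. MRPL58 among them is the peptidyl-tRNA hydrolase that rescues stalled ribosomes.

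The 7 genes lowest in the same 4 libraries were MRPL3, MRPL9, MRPL19, MRPL35, MRPS5, MRPS10 and MRPS22. MRPS22, a small subunit protein found only in mitochondria, had no read in portal infusion 1, where the limit that a count of 0 allows, 3 reads, equals 3.78 normalized counts. It had 158, 170.4 and 256 in ischemic control 2, arterial infusion 1 and portal infusion 4, and between 345 and 715 in the other 9. MRPL3 (chr13:984985-1024185) had 217, 301, 85.6 and 617 in ischemic control 2, arterial infusion 1, portal infusion 1 and portal infusion 4, and between 649.7 and 1144 elsewhere. Thus a single liver could hold the highest level of one ribosomal protein gene and the lowest of another.

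**Figure D3:**
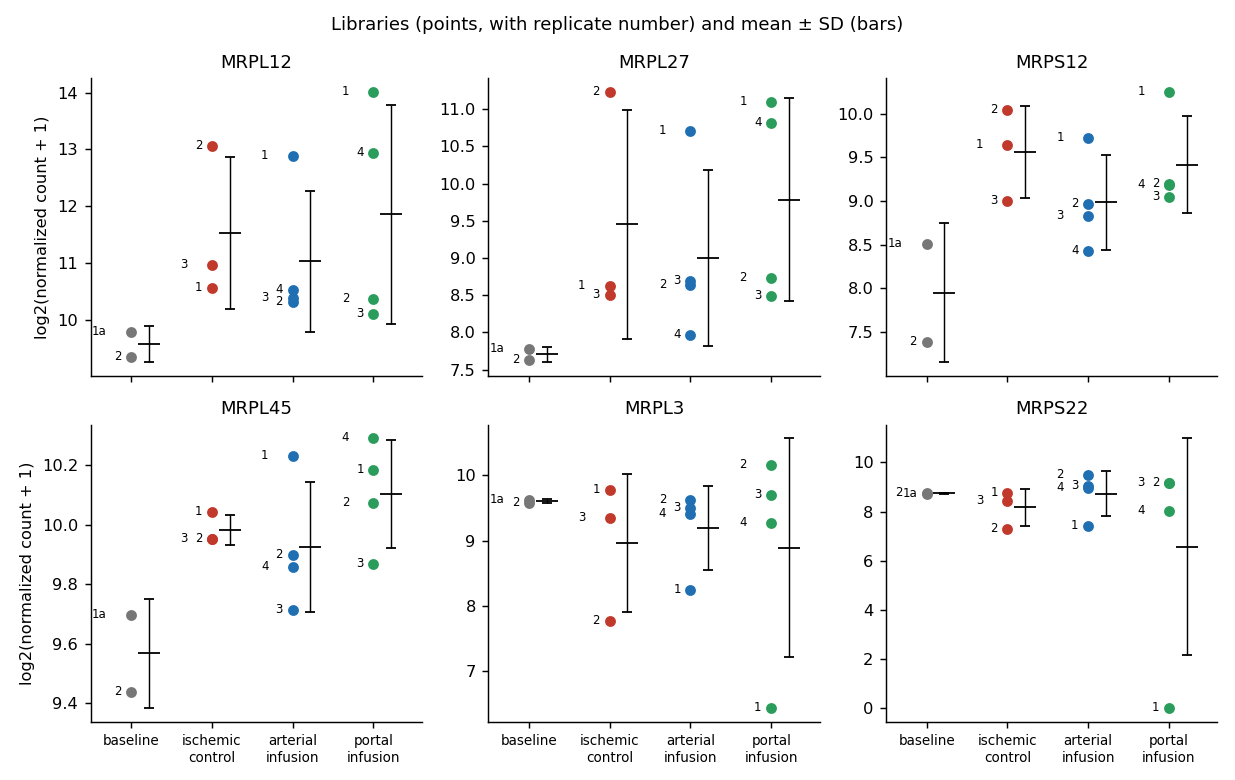
MRPL12, MRPL27, MRPS12, MRPL45, MRPL3 and MRPS22 as log2(normalized count + 1), each point 1 library with its replicate number, with the group mean and SD as bars (n = 2, 3, 4 and 4). MRPL12 and MRPL27 are highest, and MRPL3 and MRPS22 lowest, in ischemic control 2, arterial infusion 1, portal infusion 1 and portal infusion 4, whereas MRPL45 keeps within a narrow range and MRPS12 is lowest in baseline 2.

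Over the 11 livers at 6 h the SD of log2(normalized count + 1) had a median of 0.55 among the 68 genes and 0.91 among all genes tested, and of 0.69 among the 10599 tested genes whose mean lay within the range of the family (59.96 to 5297 normalized counts). The smallest SDs were those of MRPL45 (0.18), MRPL16 (0.30), a protein of the peptidyl transferase region, and MRPS33 (0.32). The largest were those of MRPS22 (2.68), MRPL12 (1.44) and MRPS25 (1.31). That of MRPS22 rests on the library without a read.

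The genes that were high and those that were low in the 4 libraries differed in a feature that had no part in choosing them, the length of the gene on the chromosome from the RefSeq annotation of Sscrofa11.1. The 20 genes highest there had a median span of 4285.5 bases, the 7 lowest one of 15588, and the other 41 one of 9886. The spans reached from 675 bases for MRPL41 to 225452 for MRPS22 (chr13:80006656-80232107). Span is not transcript length, which was not analysed here.

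Across the 68 genes, Spearman's correlation between span and the deviation of a library was -0.45 for ischemic control 2, -0.33 for arterial infusion 1, -0.37 for portal infusion 1 and -0.36 for portal infusion 4, and between 0.09 and 0.49 in the other 9 libraries. Among 11907 tested genes with a span the values were -0.32, -0.16, -0.21 and -0.11, and between -0.0023 and 0.27 in the other 9. In those 4 libraries longer members were thus relatively low where shorter ones were high, in the same direction as all genes. Baseline 1a and baseline 2 had 0.43 and 0.49 across the members. Among all genes they had 0.24 and 0.27, the highest values of any library. The part of span in the differences from baseline was not tested. Each gene's deviations are taken from its own mean over the same libraries. Negative values in some libraries therefore bring positive ones in others by construction. The genes of a library share its preparation and depth, and these values describe libraries and carry no test. Whether RNA integrity differed between the biopsies is not given in the sources used here, and its part was not tested.

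**Figure D4:**
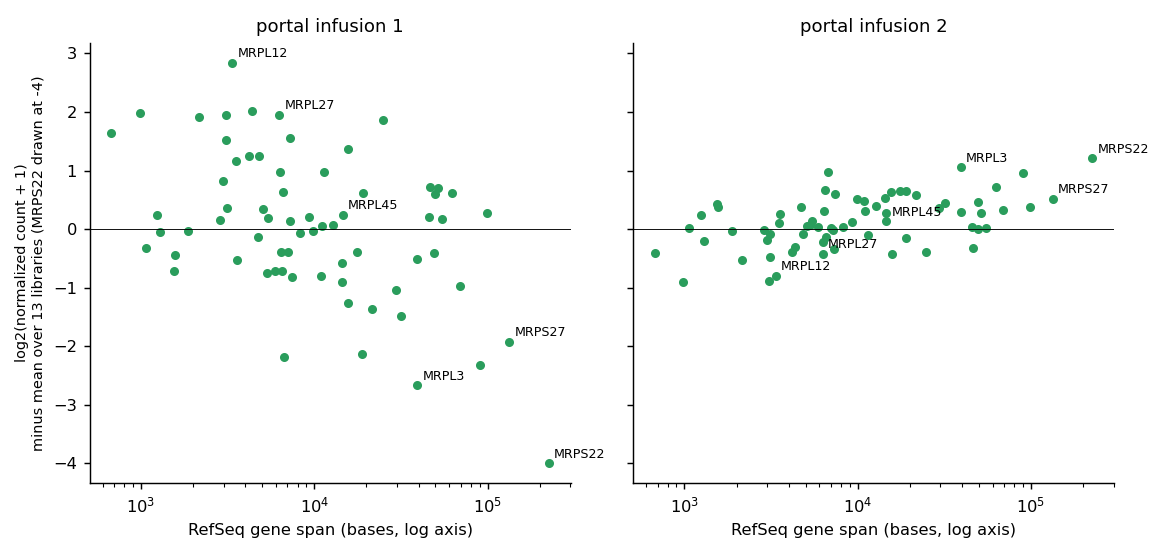
Deviation of each of the 68 genes from its mean over 13 libraries (log2 scale) against its RefSeq span in bases (log axis), in portal infusion 1, which stood apart on the first component, and portal infusion 2, which did not. Spearman's correlation is -0.37 on the left, where MRPL12 lies at the top and MRPS22 at the lower edge (drawn at -4), and 0.49 on the right, where the order of these genes is turned. Since each gene's deviations cancel out over the 13 libraries, opposite signs are partly built in.

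Leaving out the 4 libraries left 2 controls, 5 infused livers and 2 baseline livers, and more members lay above baseline in both comparisons. Between the 5 infused livers and baseline all 68 of 68 genes had a log2 fold change above 0, from 0.09 for MRPL37 to 0.89 for MRPS12, where 48.4% of all genes did. The median was 0.48, against 0.52 with all livers. Between the 2 controls and baseline 57 of 68 were above 0 (50.3% of all genes) with a median of 0.40, against 0.52 with all livers. The log2 ratio of the mean summed levels against baseline was 0.42 in the controls and 0.45 in the infused livers, in place of 0.89 and 0.83. All livers at 6 h lay above both baseline livers for 26 genes in the first comparison (38.2%, against 8.04% of all genes) and for 41 in the second (60.3%, against 20.9%).

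The largest single shifts were smaller without these libraries. MRPL12 had a log2 fold change of 0.76 (SE 0.26) in the 5 infused livers and of 1.20 (SE 0.30) in the 2 controls, in place of 2.46 and 2.34. MRPS12 had 0.89 (SE 0.37) and 1.31 (SE 0.42), in place of 1.18 and 1.55. The smallest adjusted p of any member was 0.529 and 0.259 by edgeR, so 0 genes were called in this setting too.

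The other parts of the mitochondrial expression machinery did not all go with the ribosomal proteins. In controls against baseline the 64 tested nuclear subunits of the respiratory chain and ATP synthase had a median log2 fold change of 1.08, with 60 of 64 above 0. The summed level of that list was 97155 and 86889 normalized counts at baseline and 144349, 298662 and 112967 in controls. Of the 13 proteins encoded in mitochondrial DNA 9 were above 0, with a median of 0.33. The list of 16 translation factors, taken broadly to include LRPPRC, SLIRP, MTFMT and OXA1L, had a median of 0.10 with 9 of 16 above 0. The list of 26 genes of ribosome assembly, which includes the proteases LONP1, AFG3L2 and SPG7, had 0.01 with 13 of 26. For the list of 19 mitochondrial aminoacyl-tRNA synthetases, which also holds the amidotransferase subunits GATC and QRSL1, the median was -0.11 (9 of 19 above 0). It was -0.35 for 10 genes of mitochondrial transcription and DNA maintenance (2 of 10) and -0.51 for 11 transcription factors of mitochondrial genes (4 of 11).

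Within these lists, the genes named next were again not called by edgeR (adjusted p = 0.978 each against baseline). TUFM, the elongation factor that brings the aminoacyl-tRNA to the ribosome, had a log2 fold change of 1.14 (SE 0.49) and SLIRP, which protects mitochondrial messenger RNA, one of 1.20 (SE 0.51). In ischemic controls 1, 2 and 3 TUFM had 4153, 8129 and 2248 normalized counts, the last below baseline 1a (2321). SLIRP had 536, 1242 and 577 in the same controls. MPV17L2, an assembly factor of the large subunit, had 1.49 (SE 0.50) in controls against baseline and -0.96 (SE 0.34) in infused livers against controls, the latter with an unadjusted p of 0.0124 and an edgeR adjusted p of 1.00. Its normalized counts were 487, 1529 and 731 in ischemic controls 1, 2 and 3.

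In infused livers against controls the 13 proteins of the mitochondrial genome, the products of this ribosome, had a median log2 fold change of 0.89 with 13 of 13 above 0, where the ribosomal protein genes had 0.01 and the nuclear respiratory chain subunits -0.19 with 10 of 64 above 0. These medians stand on the same 3 control livers, and arterial infusion 2 had the highest summed count of mitochondrial genome proteins (7354780, against 1278420 to 4203040 in the other 12 libraries). With 0 of 68 ribosomal protein genes and 2 of 13 mitochondrial genes (ND4L and ND4) at an unadjusted p under 0.05, and 0 of either called, whether the 2 sets differ was not tested.

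**Figure D5:**
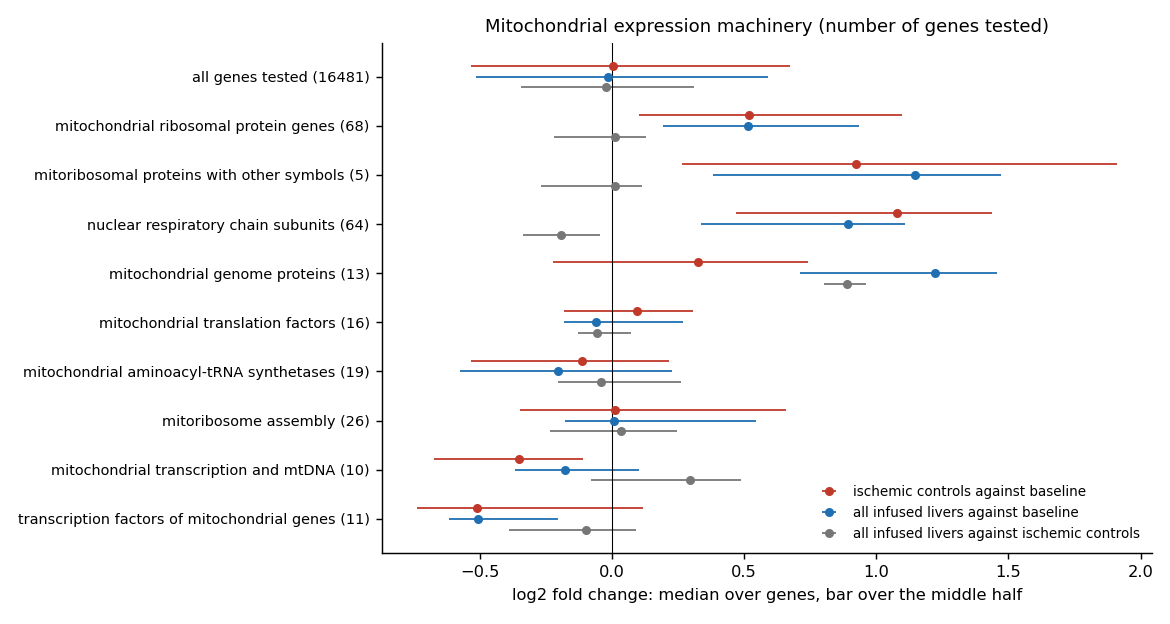
Median log2 fold change (point) and interquartile range (bar) of each list of genes and of all genes tested, with the number tested in brackets, for ischemic controls against baseline (red), all infused livers against baseline (blue) and all infused livers against ischemic controls (grey). The ribosomal protein genes lie at 0.52, 0.52 and 0.01, the translation factors, synthetases and assembly factors lie between -0.21 and 0.10 in all 3, and the mitochondrial genome proteins are the list farthest from 0 in the grey comparison (0.89).

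Markers of several cell types also differed in level between controls and baseline, with 0 of them called and 50.2% of all genes above 0. In controls against baseline 4 of 4 neutrophil markers were above 0 with a median of 2.23, and their summed level was 798 and 861 normalized counts at baseline and between 1221 and 11647 in controls. The 8 macrophage and Kupffer cell markers had a median of 0.69 (6 of 8), with sums of 21068 and 34864 at baseline and between 35798 and 63281 in controls. The 6 T and NK cell markers had a median of 0.91 (6 of 6), with sums of 475 and 519 at baseline and 352 to 1676 in controls. The 3 erythroid markers had a median of 2.18 (3 of 3), with sums of 994 and 1845 at baseline and 1372 to 29058 in controls. Hepatocyte markers had a median of -0.29 (3 of 10), with sums of 2062490 and 3953120 at baseline and 1504430 to 2332350 in controls.

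Among the remaining lists, endothelial markers had a median of -0.20 (2 of 5), cholangiocyte markers one of 0.88 (3 of 4), stellate and stromal markers one of -0.23 (3 of 7) and genes of proliferating cells one of -0.81 (1 of 4). Markers without a read in some library were CD2 and EPCAM in portal infusion 1, PRF1 in arterial infusion 1 and LUM in both. The lowest hepatocyte sums at 6 h were those of portal infusion 1 (989138), portal infusion 4 (1196020), ischemic control 2 (1504430) and arterial infusion 1 (1857880), the 4 libraries that stood apart. The single markers did not all follow the sum. APOB, TF, SERPINC1 and FGB were lower in these 4 than in any other library. APOA1 was higher in them (173161 to 339063 normalized counts, at most 139116 elsewhere), and ASGR1 was highest in portal infusion 1, arterial infusion 1 and portal infusion 4. ALB, TTR, CPS1 and HNF4A were mixed. The part of the cell composition in the levels of the ribosomal protein genes was not tested.

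Of the 68 genes, 66 are placed on a chromosome in the annotation, and 22 of those overlap another RefSeq gene, such as COPB2 at MRPS22, TMEM8A at MRPL28, EME1 at MRPL27 and NR2C2 at MRPS25. MRPS11 and MRPL46, chosen here for their position after the values were known, lie 38 bases apart on chromosome 1. MRPS11 had a log2 fold change of 1.10 (SE 0.48) in controls against baseline, and MRPL46 one of 0.52 (SE 0.43). Their counts may share reads at that border, since the libraries carried no strand.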

How the data were processed

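RNA of 13 liver biopsies was measured as raw counts per gene. The authors enriched mRNA with oligo-dT, prepared non-directional libraries, filtered reads, mapped the pairs to Sscrofa11.1 with HISAT2, assigned them to Ensembl genes with FeatureCounts, and deposited unnormalized counts. Tool versions, the strand setting and the treatment of reads mapping to several places are not given in the sources used here, and the labels and the paper name different RNA kits. Groups and replicate numbers came from the labels. The paper describes the livers at 6 h as 1 pig each, and whether the baseline biopsies came from some of the same pigs is not given, so comparisons with baseline treat them as separate.

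Tests used edgeR 4.0.16 under R 4.3.3, by its quasi-likelihood method after filterByExpr and TMM, with all 13 libraries and 4 groups in 1 fit, Benjamini-Hochberg adjustment over 16481 genes and a threshold of 0.05. The SE is the size of the log2 fold change divided by the root of F. DESeq2 1.42.0, the study's own tool for pairs of groups, gave the size factors and principal components and served as an alternative test. Log2 levels used a pseudocount of 1. Named genes were compared by exact two-sided permutation of the difference of mean log2 levels (SciPy 1.17.1). The fit was tested on simulated counts. No library was a copy of another (smallest chi-square per gene within a group 77.1).

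The genes and lists were chosen with earlier results of these data known. Named are genes with the smallest p (3 per comparison), the highest or lowest fold change, the 3 largest and 3 smallest SDs at 6 h, textbook roles and the smallest p of other lists. A planned choice by level per kilobase could not be made, as only gene spans were at hand, and levels are not compared between genes. Limits from reads cover counting error only. Alternatives were DESeq2, other normalizations and filters, genes of mitochondrial DNA and small RNAs left out, fits to the groups compared, the replicate number as a block and each library left out. Leaving out 4 libraries was added after seeing the data.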

Additional observations from a re-analysis of the deposited data

Results flagged for a closer look

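In 6 of the 58 combinations of a named gene and a group of 4 livers, 1 liver lay far outside the range of the other 3, by Dixon's ratio of its gap to the whole range at the 95% level. Chance gives about 1 in 20, but several of these genes were named for a large SD or an extreme fold change in the same livers and several share a liver, so the count is not to be read against that rate. Arterial infusion 1 was the highest of its group for MRPL12 (7600.3 normalized counts), MRPL27 (1669), MRPS25 (3781) and MRPL10 (990.4), and it is among the libraries that stood apart on the first component. Portal infusion 1, another of them, was the highest of its group for MRPS12 (1216). Arterial infusion 2, which did not stand apart, was the highest of its group for MRPS18C (136). Ischemic controls (3 livers) and baseline (2 livers) were too few for this ratio.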

How the results depend on the processing

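In 0 of 7 counts of adjusted calls did any alternative call a member, and 617 of 624 alternative fold changes of named genes kept their direction and their side of the threshold. The adjusted p of MRPL12 in controls against baseline ranged from 0.0603 to 1. Unadjusted counts moved more. In controls against baseline the 11 higher genes became 18 with DESeq2 over all libraries, 20 with DESeq2 over the groups compared, 4 with library totals and 5 with at least 10 reads in every library. In infused livers against baseline the 9 became 18, 19, 3 and 4, and 15 with no filter. The shares of all genes, in the same order, were 3.35%, 6.19%, 1.57% and 3.51% in controls against baseline. For infused livers they were 4.09%, 4.51%, 1.54% and 2.82%, and 3.5% with no filter. Called among all genes in controls against baseline were 166 with DESeq2 over the groups compared, 30 with no filter and 5 with DESeq2 over all libraries, and in infused livers against baseline 16, 25 and 17.

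Leaving out 1 library at a time gave between 0 and 18 genes in controls against baseline. The count was 0 without baseline 2, 2 without baseline 1a or ischemic control 2, 7 without arterial infusion 2 or portal infusion 4, 17 without ischemic control 1 or 3 and 18 without arterial infusion 1. In infused livers against baseline it ranged from 0 to 12, with 0 without baseline 2, 1 without baseline 1a, 2 without arterial infusion 1 or portal infusion 4, and 4 without portal infusion 1. The share of all genes ran from 0.319% (without baseline 2) to 4.66% (without ischemic control 1) in controls against baseline. For infused livers against baseline it ran from 0.204% (without baseline 2) to 3.66% (without portal infusion 3). The median of arterial infusion against controls ranged from -0.13 to 0.25, MRPL12 in portal infusion against controls from -0.23 to 1.82, and MRPL28 in arterial infusion against controls from -1.40 to 0.36.

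Without the 4 libraries that stood apart, 16 genes were higher in infused livers against baseline (against 4.06% of all genes), and 4 values changed sign: MRPL12 in portal infusion against controls (-0.53), MRPL12 (0.15) and MRPS2 (0.27) in arterial against portal infusion, and MRPS27 in infused livers against baseline (0.088). The cause was not tested.

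No pairing by replicate number was seen: 5 of 16 same-numbered pairs had a correlation of deviations over 0.1, as had 15 of 46 others. Deviations were taken from group means, so the 2 baseline libraries mirror each other (-0.089 and 0.089 with ischemic control 1). These correlations therefore cannot show whether a baseline biopsy and a liver at 6 h came from the same pig. With the number as a replicate block the counts were 20 and 15 (against 5.16% and 3.16% of all genes), MRPL12 in portal infusion against controls was -0.12, and the median of all genes in infused livers against baseline was -0.15, in place of -0.014. With 2 baseline livers, differences from baseline are limited first by their number.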
